A study of Mus musculus with 18 samples.

Results

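The PPAR-alpha fasting targets described here are 9 genes listed by symbol: *Ppara*, *Cyp4a10*, *Cyp4a14*, *Pdk4*, *Vnn1*, *Plin2*, *Cidec*, *Cidea* and *Fabp1*. They were chosen with earlier results of these data known. Of these, 8 had a row among the 15572 genes of the RNA-seq count table, and all 8 passed the filter on low counts, so that they are 8 of 14151 genes tested. *Cidea* had no row and its expression was not analysed here. For the chromatin data, all 9 were located among 26180 genes with a RefSeq transcript on mouse build GRCm38 (mm10).

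PPAR-alpha is a nuclear receptor that is activated by fatty acids and their derivatives. With its partner RXR it binds direct repeats of the hexamer AGGTCA with a 1-base gap and induces genes of fatty acid transport, oxidation and ketone body formation. In liver its targets are best known for their rise in fasting, when adipose tissue releases fatty acids, and for their fall after feeding.

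The livers came from C57bl/6j mice kept on chow, reported at 12 weeks of age, either fasted overnight or given a high carbohydrate diet for 6 h after the fast. Wild-type (WT) littermates were fasted or refed. JMJD1C-LKO mice, in which floxed *Jmjd1c*, a gene of an H3K9 demethylase, is deleted by Cre under the albumin promoter and therefore in hepatocytes, were refed. Their floxed allele had lost its Neo cassette to FLPe recombinase, and other cells of the liver keep the gene. ATAC-seq, which maps open chromatin, was made on livers of all 3 kinds, ChIP-seq of dimethylated histone H3 lysine 9 (H3K9me2) on livers of fasted and of refed WT mice, and RNA-seq on refed livers of both genotypes, with 2 samples a group. The study describes the RNA samples as pooled, with neither the number of mice in a pool nor whether pools share mice given in the sources used here, so the p-values below measure the spread between pools.

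RNA-seq libraries held between 51265128 and 54400509 counts, and levels are given as CPM, counts divided by scaled library sizes so that libraries can be compared. *Jmjd1c* itself was counted 1140 and 1188 times in the WT libraries and 990 and 1129 times in the libraries labelled JMJD1C-LKO, a log2 fold change of -0.14 (SE 0.084, adjusted p = 0.233). Which exons were deleted is not given in the sources used here, so this count over the whole gene does not check the labels. Directions below are those of the libraries labelled JMJD1C-LKO. The hepatocyte markers *Alb* and *Apoa1* stood at 71445 CPM or more and 10331 CPM or more in all 4 libraries.

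Between refed WT and refed JMJD1C-LKO liver, 4 of the 8 measured targets passed the test at an adjusted p of at most 0.05, against 28.0% of all genes tested. *Pdk4*, *Cidec* and *Plin2* were higher in JMJD1C-LKO and *Fabp1* was lower, where 14.6% of all genes were called higher and 13.4% lower. *Ppara*, *Cyp4a10*, *Cyp4a14* and *Vnn1* did not pass. Without WT replicate 1 or without WT replicate 2, 2 targets passed, *Pdk4* and *Cidec*, and the calls over all genes fell from 3958 to 1265 and 1068. The targets thus did not move in 1 direction: the median log2 fold change of the 8 was 0.10, with a range from -0.40 to 3.03, and that of all genes was 0.01. In 6 of the 8 the WT and JMJD1C-LKO libraries did not overlap, as they did not in 67.5% of all genes tested.

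**Figure D1:**
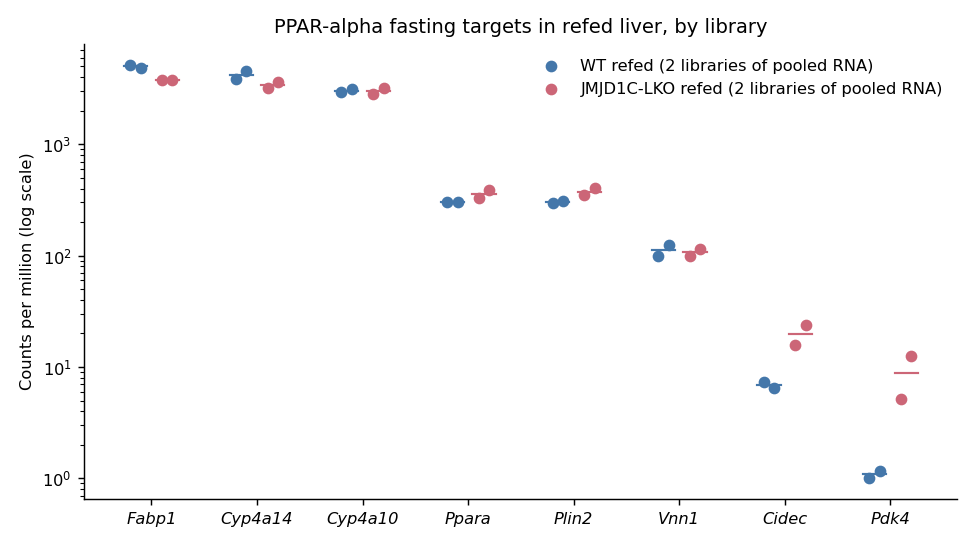
Level of the 8 measured targets in each RNA-seq library, in CPM on a log axis. Points are single libraries and short lines are group means. The groups lie apart most for *Pdk4* and *Cidec*, the lowest of the 8, and overlap for *Cyp4a10* and *Vnn1*.

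*Ppara*, the receptor, lies on chromosome 15 (85735564 to 85806851, plus strand) and was measured at 304 and 305 CPM in WT and 328 and 384 CPM in JMJD1C-LKO. Both JMJD1C-LKO libraries were above both WT libraries, which were nearly equal. The log2 fold change of 0.23 (SE 0.093) had an adjusted p of 0.0979 and did not pass. Leaving out JMJD1C-LKO replicate 1, the lower of the pair, gave 0.33, and leaving out JMJD1C-LKO replicate 2 gave 0.11. Without either WT library it was 0.22.

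Of 13 receptors, RXR partners and coregulators, 3 were higher and 3 lower, with a median log2 fold change of 0.03. *Ppargc1a*, the coactivator PGC-1-alpha, which rises in fasted liver, was at 8.82 and 8.91 CPM in WT and 25.5 and 33.1 CPM in JMJD1C-LKO, 3.30-fold higher (adjusted p = 5.4e-05). *Ppargc1b*, its relative, was 1.73-fold higher (adjusted p = 0.000725). *Pparg*, the adipogenic receptor, stood at 0.72 of its WT level (adjusted p = 0.0208) and *Rxrg*, a low-level RXR, at 0.61 (adjusted p = 0.0121). *Rxra*, the main RXR of liver, gave a log2 fold change of 0.19 (SE 0.084, adjusted p = 0.117) and did not pass. The remaining calls were on *Rxrb*, a further RXR, which was 1.21-fold higher (adjusted p = 0.0481), and *Ncor1*, a corepressor, at 167 and 162 CPM in WT and 134 and 138 CPM in JMJD1C-LKO, 0.82 of the WT level (adjusted p = 0.0244).

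*Cyp4a10* and *Cyp4a14* encode microsomal omega-hydroxylases of fatty acids and are classical reporters of PPAR-alpha activity in rodent liver. They lie in a cluster on chromosome 4, *Cyp4a14* from 115486200 to 115496141 on the minus strand and *Cyp4a10* from 115518287 to 115533649 on the plus strand. *Cyp4a10* was at 2943 and 3133 CPM in WT and 2825 and 3168 CPM in JMJD1C-LKO. The groups overlapped, and the log2 fold change was -0.02 (SE 0.094, adjusted p = 0.899). *Cyp4a14* was at 3860 and 4516 CPM in WT and 3209 and 3618 CPM in JMJD1C-LKO. Both JMJD1C-LKO libraries were below both WT libraries, but the log2 fold change of -0.30 (SE 0.107) had an adjusted p of 0.0665 and did not pass. It passed by DESeq2 (adjusted p = 0.0292) and with the replicate number as a block (0.0318). It did not pass with other size factors (0.0696), without the filter (0.0610) or for its transcript in a fit with transcripts as rows (0.177). With a library left out, the log2 fold change ran from -0.41 to -0.18. A call on this gene thus depends on the method.

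The other genes of the cluster went different ways. *Cyp4a12b* was at 49.3 and 39.2 CPM in WT and 104 and 68.5 CPM in JMJD1C-LKO, 1.95-fold higher (adjusted p = 0.00397). *Cyp4a32* was 1.52-fold higher (adjusted p = 0.00505). *Cyp4a31* was at 141 and 192 CPM in WT and 102 and 124.3 CPM in JMJD1C-LKO, 0.68 of the WT level (adjusted p = 0.0183). *Cyp4a12a*, whose product is a male-biased enzyme, had a log2 fold change of 0.07 (SE 0.143, adjusted p = 0.744).

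These paralogs share exon sequence, which bears on how their reads were divided. Of all 50-base windows of its transcript, *Cyp4a10* shares 37.1% with other genes, first of all *Cyp4a32*, and *Cyp4a12a* and *Cyp4a12b* share 48.9% and 49.4% with each other. *Cyp4a32* shares 44% and *Cyp4a31* 20.9%. The values of these 5 genes are uncertain to that extent, and *Cyp4a31* also had 70.1% of its counts on 1 of its 2 transcripts in WT replicate 1 and 16.5% in WT replicate 2. *Cyp4a14* shares no such window with another gene.

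Over the 14 tested CYP4 genes, 7 were higher and 1 lower, with a median log2 fold change of 0.19. The call with the smallest p was on *Cyp4f15*, a CYP4F hydroxylase, at 95.4 and 90.2 CPM in WT and 169 and 182 CPM in JMJD1C-LKO (1.89-fold, adjusted p = 0.000139). *Cyp4b1* was 1.55-fold higher (adjusted p = 0.0109) from 6.37 and 5.81 CPM in WT. The calls in this list were thus on other members of the family than *Cyp4a10* and *Cyp4a14*, which hold most of its counts.

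*Pdk4* encodes pyruvate dehydrogenase kinase 4, which phosphorylates and shuts off the pyruvate dehydrogenase complex and so spares glucose in fasting. It lies on chromosome 6 (5483351 to 5496278, minus strand). It was the lowest of the measured targets, with 52 and 61 counts in WT and 256 and 693 counts in JMJD1C-LKO, or 1.0 and 1.17 CPM against 5.18 and 12.6 CPM. Both JMJD1C-LKO libraries were above both WT libraries and differed from each other 2.43-fold. The gene was 8.18-fold higher in JMJD1C-LKO (log2 fold change 3.03, SE 0.385, adjusted p = 0.000689), and the difference passed in each fit that left out a library, with log2 fold changes from 2.25 to 3.52.

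Because both WT refed livers had an ATAC summit just upstream of this gene, the 300 bases around those summits are shown, from -399 to -100 of the start on the minus strand, with the 11 bases centred on each summit in capitals.
*Pdk4*, chr6:5496378-5496677: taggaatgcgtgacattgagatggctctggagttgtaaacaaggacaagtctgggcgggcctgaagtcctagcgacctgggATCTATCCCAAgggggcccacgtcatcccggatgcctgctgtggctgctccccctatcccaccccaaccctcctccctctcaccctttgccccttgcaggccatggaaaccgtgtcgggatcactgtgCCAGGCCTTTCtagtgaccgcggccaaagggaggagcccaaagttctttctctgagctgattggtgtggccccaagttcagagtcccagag
Neither the hexamer AGGTCA nor a repeat of it with at most 2 differing letters was found in this stretch on either strand.

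Among 13 genes of the pyruvate dehydrogenase complex and its regulators, 4 were higher and 2 lower, with a median log2 fold change of -0.06. *Pdk2*, a further kinase of the complex, was at 108 and 105 CPM in WT and 151 and 148 CPM in JMJD1C-LKO (1.40-fold, adjusted p = 0.0019). *Pdk1* gave a log2 fold change of -0.06 (SE 0.104, adjusted p = 0.699). *Pdk3* was called higher (adjusted p = 0.0499) at 0.45 CPM or less in every library, a call that ended under another scaling of the library sizes, without the filter and without any 1 library. *Pdhb*, a subunit of the first enzyme of the complex, stood at 0.65 of its WT level (adjusted p = 0.00198). *Pdp2*, a phosphatase that opposes the kinases, was 1.33-fold higher (adjusted p = 0.0398). Per length, *Pdk4* was at 0.29 and 0.34 CPM per kb in WT and 1.5 and 3.64 CPM per kb in JMJD1C-LKO.

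*Vnn1* encodes vanin 1, a pantetheinase that releases cysteamine and pantothenate, the precursor of coenzyme A. It lies on chromosome 10 (23894688 to 23905343, plus strand) and was at 99.9 and 123.3 CPM in WT and 99.5 and 115 CPM in JMJD1C-LKO. The groups overlapped, and the log2 fold change was -0.06 (SE 0.113, adjusted p = 0.733). Its relative *Vnn3* stood at 0.79 of the WT level, from 145 and 146 CPM to 117 and 114 CPM (adjusted p = 0.0107). Of 12 genes of pantetheine and coenzyme A metabolism, that was the only one called lower, and *Pank1*, a pantothenate kinase and itself a PPAR-alpha target, was the only one called higher (1.28-fold, adjusted p = 0.0103).

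*Plin2* and *Cidec* encode proteins of the lipid droplet surface. Perilipin 2 coats hepatocyte droplets and protects them from lipases, and CIDEC (Fsp27) joins droplets into larger ones. *Plin2*, on chromosome 4 (86656565 to 86670059, minus strand), was at 294 and 310 CPM in WT and 348 and 402 CPM in JMJD1C-LKO, 1.24-fold higher (log2 fold change 0.31, SE 0.092, adjusted p = 0.0314). This call ended without either WT library (adjusted p = 0.238 and 0.152), without JMJD1C-LKO replicate 2 (0.101) and for its transcript in a fit with transcripts as rows (0.123). *Plin2* shares 9.09% of its 50-base windows with the predicted gene *Gm12551*.

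*Cidec*, on chromosome 6 (113424634 to 113435760, minus strand), was at 7.33 and 6.50 CPM in WT and 15.6 and 23.7 CPM in JMJD1C-LKO. Both JMJD1C-LKO libraries were above both WT libraries, and the gene was 2.84-fold higher (log2 fold change 1.51, SE 0.181, adjusted p = 0.000524). The difference passed in each fit that left out a library, with log2 fold changes from 1.17 to 1.77. The transcript with more counts held 60.7% and 62.9% of them in WT and 68.8% and 68.5% in JMJD1C-LKO. *Cideb*, the family member of normal hepatocytes, had a log2 fold change of 0.00 (SE 0.091, adjusted p = 0.985) at 289 to 323 CPM.

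Of 16 tested lipid droplet genes, 5 were higher and 3 lower, with a median log2 fold change of 0.04. *Pnpla2*, the triglyceride lipase ATGL, was at 88.0 and 89.5 CPM in WT and 159 and 197 CPM in JMJD1C-LKO, 2.0-fold higher (adjusted p = 0.00025). *G0s2*, an inhibitor of that lipase, stood at 0.63 of its WT level (adjusted p = 0.00295), from 163 and 135 CPM to 86.3 and 103 CPM. *Lipe*, hormone-sensitive lipase, was 1.95-fold higher (adjusted p = 0.000292). *Plin4* was 2.1-fold higher (adjusted p = 0.00408), while *Plin3* (log2 fold change -0.13, SE 0.092) and *Plin5* (0.13, SE 0.082) did not pass.

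Several of these genes are also abundant in adipocytes. Of 10 adipocyte markers only 4 could be tested, of which *Fabp4* and *Adrb3* were higher (1.66-fold, adjusted p = 0.00901, and 1.69-fold, adjusted p = 0.00379) and *Car3* was lower (0.57 of WT, adjusted p = 0.00929). Their summed level was 748 to 810 CPM in WT and 355 to 557 CPM in JMJD1C-LKO, nearly all of it *Car3*. *Lep*, *Retn*, *Plin1* and *Ucp1* had no row. The defining marker *Adipoq* was counted 1, 3, 5 and 6 times in the 4 libraries, those of WT first. *Cfd* was counted 13, 9, 6 and 8 times, and neither passed the filter on low counts.

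Like *Pdk4* and *Cidec*, most markers of Kupffer and immune cells were higher in JMJD1C-LKO. Of 9 such markers 8 were called higher, and their summed level was 242 and 244 CPM in WT against 656 and 1006 CPM in JMJD1C-LKO, again highest in JMJD1C-LKO replicate 2. Of 10 hepatocyte markers 2 were higher, *Tat* and *Cps1*. *Tat* too was highest in JMJD1C-LKO replicate 2 (592 and 516 CPM in WT, 1992 and 2908 CPM in JMJD1C-LKO), while *Cps1* was not. *Clec4f*, of Kupffer cells, was 1.96-fold higher (adjusted p = 0.000849) and *Cd74*, of antigen presenting cells, 8.29-fold higher (adjusted p = 3.52e-05). Of 9 markers of endothelial and stellate cells, 5 were higher, with sums of 221 and 225 CPM against 263 and 325 CPM. In bulk liver, a change in the number of cells of a type and a change in the RNA of each cell cannot be told apart, and the part of these cells in the *Pdk4* and *Cidec* values was not tested.

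*Fabp1* encodes the liver fatty acid binding protein, which carries fatty acids in the cytosol and hands ligands to PPAR-alpha in the nucleus. It lies on chromosome 6 (71199879 to 71205034, plus strand) and was at 5183 and 4805 CPM in WT and 3766 and 3807 CPM in JMJD1C-LKO. Both JMJD1C-LKO libraries were below both WT libraries and within 1.01-fold of each other. The gene stood at 0.76 of its WT level (log2 fold change -0.40, SE 0.089, adjusted p = 0.0101). The log2 fold change kept its sign in every alternative, between -0.35 and -0.46, but the call ended without either WT library (adjusted p = 0.121 and 0.0633) and in the fit with transcripts as rows (0.0530).

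Of 9 tested fatty acid and acyl-CoA binding proteins, 1 was higher and 2 lower, with a median log2 fold change of 0.10. *Acbd5*, a peroxisomal acyl-CoA binding protein, stood at 0.72 of its WT level (adjusted p = 0.00999). *Fabp4*, the adipocyte and macrophage form, was 1.66-fold higher (adjusted p = 0.00901) at 12.8 CPM or less. *Fabp2* gave -0.17 (SE 0.083) and *Fabp5* 0.30 (SE 0.108), and neither passed.

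The promoters of these targets differ in the letters that PPAR-alpha and RXR bind. The RefSeq promoter table (250 bases before to 50 after a start, GRCm38.p6) held 5 of 8 targets looked up, *Ppara*, *Pdk4*, *Plin2*, *Cidec* and *Fabp1*, and not *Cyp4a10*, *Cyp4a14* or *Vnn1*. Both strands were searched for AGGTCANAGGTCA. Of 32851 promoters in the table, 0.554% hold it with at most 1 differing letter, 3.86% with at most 2 and 24.6% with at most 3. The closest match in *Fabp1* differs at 1 letter (T4C, with positions counted from 1 at the 5′ end of the repeat, the repeat's letter first), and begins 67 bases before the start. The closest match in *Plin2* differs at 2 letters (A8G and A13C), that in *Cidec* at 3 (4 at its other start), and those in *Ppara* and *Pdk4* at 4. For *Ppara* the promoter looked up was that of the proximal of its 2 starts. The transcript from the distal start held 71.35% to 75.49% of its counts in the 4 libraries. The matches of *Fabp1* and *Plin2*, 1 target that was lower and 1 that was higher, are shown in capitals on the strand of the gene, where both read in reverse.
*Fabp1*, chr6:71199768-71199867, plus strand: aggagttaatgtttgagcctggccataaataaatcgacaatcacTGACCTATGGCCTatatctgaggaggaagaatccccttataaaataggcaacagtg
*Plin2*, chr4:86670229-86670309, minus strand: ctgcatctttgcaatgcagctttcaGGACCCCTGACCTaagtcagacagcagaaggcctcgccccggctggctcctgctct
In *Fabp1* the letters lie just upstream of a TATA-like stretch, tataaaata. A match of letters is a description of the sequence and not a measured site.

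**Figure D2:**
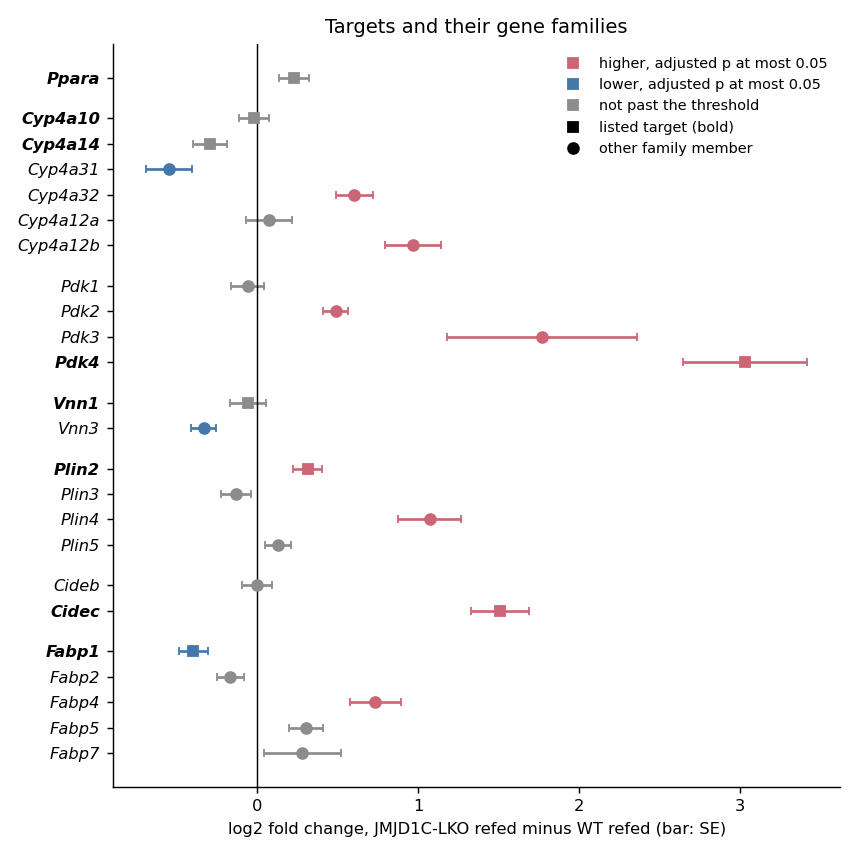
Log2 fold change of each measured target (squares, bold names) and its tested family members (circles), JMJD1C-LKO refed minus WT refed, with SE bars. *Pdk4* at 3.03, *Pdk3* at 1.77 (SE 0.589, at 0.45 CPM or less in every library) and *Cidec* at 1.51 lie furthest from 0. *Cyp4a10*, *Vnn1*, *Pdk1* and *Cideb* lie within 1 SE of it.

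Per length, the measured targets spanned more than 4 orders of magnitude. In WT refed liver, *Fabp1* was at 10120 and 9385 CPM per kb, *Cyp4a14* at 1547 and 1810, *Cyp4a10* at 1411 and 1502, *Plin2* at 156 and 164, *Vnn1* at 41.4 and 51.1, *Ppara* at 41.9 and 41.9, *Cidec* at 4.27 and 3.79 and *Pdk4* at 0.29 and 0.34. *Vnn1* and *Ppara* overlapped in that order, and all other neighbours stood apart in WT. In JMJD1C-LKO, *Cyp4a10* (1354 and 1519 CPM per kb) and *Cyp4a14* (1286 and 1450) overlapped, as did *Ppara* (45.1 and 52.9) and *Vnn1* (41.2 and 47.6), and the means of each pair were in the opposite order. *Fabp1* ranked 6 and *Pdk4* 11999 of 14084 genes by WT level per length.

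The remaining PPAR-alpha targets were grouped by where their products act. Among 16 peroxisomal targets, 5 were higher and 6 lower, with a median log2 fold change of 0.01. The acyl-CoA thioesterases *Acot3* and *Acot4* were lower, at 0.49 (adjusted p = 0.00316) and 0.59 (adjusted p = 0.000402) of WT. *Abcd2*, a transporter of very long chain acyl-CoA, stood at 0.62 (adjusted p = 0.000646).

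Among 18 mitochondrial and ketogenic targets, 3 were higher and 2 lower, with a median log2 fold change of -0.01. *Cpt1a*, which admits long chain fatty acids to mitochondria, was at 366 and 355 CPM in WT and 519 and 557 CPM in JMJD1C-LKO (1.49-fold, adjusted p = 0.00119). *Ucp2* was 1.69-fold higher (adjusted p = 0.00588). *Acadl*, long chain acyl-CoA dehydrogenase, stood at 0.81 (adjusted p = 0.0187) and *Bdh1*, the last enzyme of ketone body formation, at 0.84 (adjusted p = 0.0435).

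Among 14 secreted and regulatory targets, 7 were higher and 3 lower, with a median log2 fold change of 0.22. *Fgf21*, a fasting hormone of the liver, was at 30.3 and 27.2 CPM in WT and 5.04 and 5.50 CPM in JMJD1C-LKO, 0.18 of the WT level (adjusted p = 4.8e-06). *Retsat*, retinol saturase, stood at 0.60 (adjusted p = 0.000898). *Angptl4*, an inhibitor of lipoprotein lipase, was at 106 and 98.8 CPM against 160 and 225 CPM (1.88-fold, adjusted p = 0.00165). *Tsc22d3*, which is also a glucocorticoid target, was 1.87-fold higher (adjusted p = 0.000473). Each of these 3 lists held calls in both directions. Of all genes tested, 14.6% were called higher and 13.4% lower, so calls in both directions are not particular to these lists. Over the 9 pathway lists, 59 genes were called, and 22 without WT replicate 1 and 19 without WT replicate 2.

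**Figure D3:**
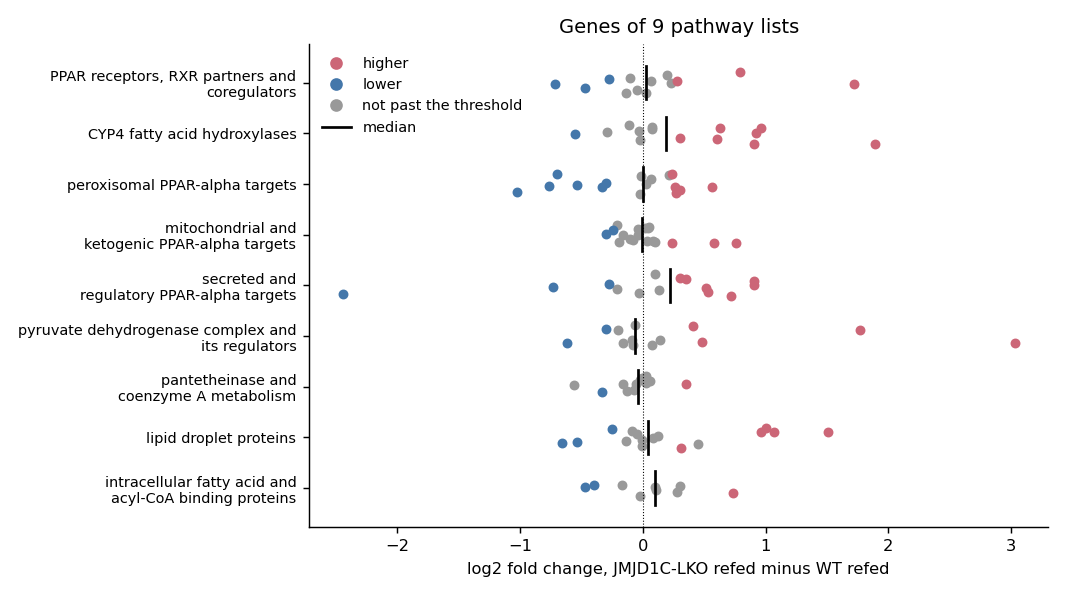
Log2 fold change of every tested gene in 9 pathway lists, JMJD1C-LKO refed minus WT refed, with a black line at each list's median. Red points were called higher and blue points lower at an adjusted p of at most 0.05, and every list holds both.

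Genes known to differ between the fasted and refed states were also examined. Of 10 genes known to be higher in fasted liver, 7 were higher in JMJD1C-LKO. The 2 that were lower were *Fgf21*, at 0.18 of its WT level, and *Asns*, at 0.49 (adjusted p = 0.0260). *Igfbp1*, which insulin represses, was at 4.92 and 6.19 CPM in WT and 375 and 830 CPM in JMJD1C-LKO, and *Pck1*, a gluconeogenic enzyme, at 1525 and 1206 CPM against 3104 and 3755 CPM. Of 10 genes known to be higher in refed liver, 5 were lower and 1, *Scd1*, was higher. The labels give 6 h of refeeding for both groups, and the part of feeding state in the values of the targets was not tested.

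The chromatin of the targets was compared through MACS2 summits, the single positions of highest enrichment that were called in each liver with a score, the -log10 of the q-value. A gene counted as having a summit when 1 lay within 1000 bp of a RefSeq start. Lists of summits differed in length from 825 to 7632 in ATAC-seq and from 1297 to 13456 in H3K9me2 ChIP-seq, so scores were read only as ranks within a liver. With 2 livers a group and no read counts, no test was made. The first WT refed H3K9me2 liver stood apart, with 1297 summits of which 5.01% lay within 1000 bp of a start, against 83.5% to 92.0% in the other 3 livers. In ATAC-seq that share was 15.3% in fasted liver 2 and 22.7% in JMJD1C-LKO liver 2, against 42.5% to 59.7% in the other livers.

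*Pdk4* was the only target with an ATAC summit at its start in both livers of a group. In WT refed liver 1, its summit lay 313 bp upstream of the start (score 6.69, rank 1595 of 5027), and in WT refed liver 2 it lay 185 bp upstream (score 5.46, rank 1572 of 3119), 128 bp from the first. These are the capitals in the *Pdk4* sequence above. *Ppara* had a summit 72 bp upstream of its distal start in WT refed liver 1 alone (score 4.0, rank 3590 of 5027).
*Ppara*, chr15:85735432-85735552, plus strand: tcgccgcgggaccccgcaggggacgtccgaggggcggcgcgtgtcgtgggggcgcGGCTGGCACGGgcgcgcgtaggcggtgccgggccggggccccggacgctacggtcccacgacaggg
This stretch of 121 bases, from -132 to -12 of the start and shown with the 11 bases centred on the summit in capitals, holds 23 CpG and 82.6% G and C, and the 300 bases at *Pdk4* hold 9 CpG and 59.0%. The median promoter of the RefSeq table holds 52.7%.

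No target had an ATAC summit at its start in either fasted or either JMJD1C-LKO liver. The counts were 0 of 9 in both fasted livers, 2 and 1 of 9 in the refed livers and 0 of 9 in both JMJD1C-LKO livers, where 12% and 5.49%, 9.94% and 6.24%, and 4.06% and 0.886% of all annotated genes had one. In both livers of a group, 4.36% of all genes had a summit in the fasted state, 4.78% in the refed state and 0.397% in refed JMJD1C-LKO. The other 7 targets had no ATAC summit within 14540 bp of a start in any liver, *Fabp1* being the nearest to one. Of the JMJD1C-LKO lists, the longer held 1450 summits, fewer than any WT list, so the absence of a *Pdk4* summit there is not a measured loss. The RNA of *Pdk4* was higher in the libraries labelled JMJD1C-LKO, which are other samples than the JMJD1C-LKO ATAC-seq livers. The relation between its RNA and its summits was not tested.

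**Figure D4:**
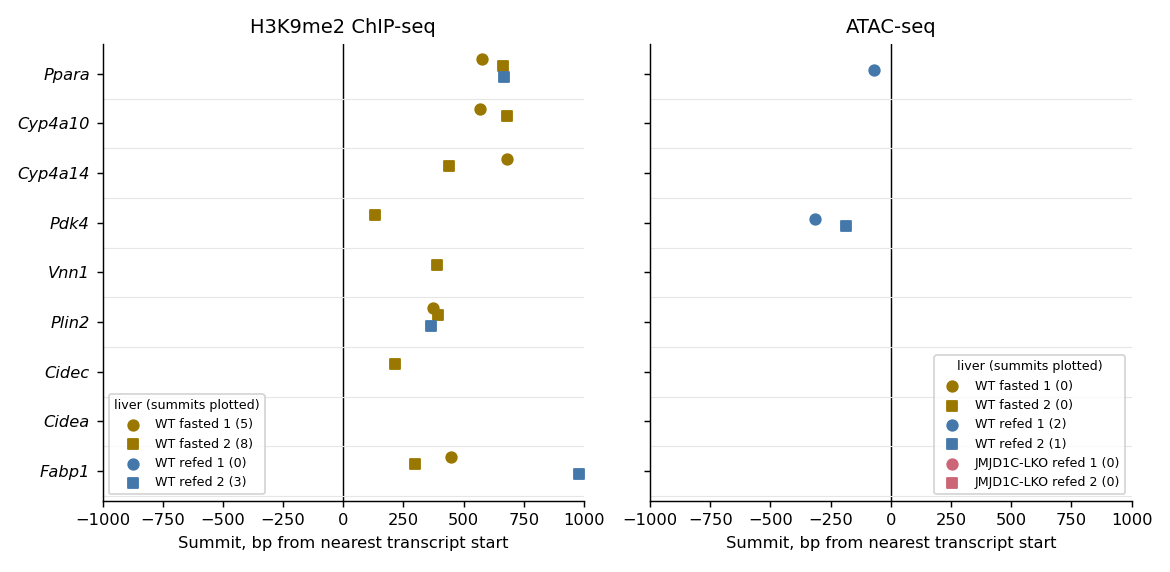
Position of each summit within 1000 bp of a start of the 9 targets, in bp from the nearest start with upstream to the left, for H3K9me2 (left) and ATAC-seq (right). Colours mark groups and shapes mark livers 1 and 2, with the number of summits plotted in brackets. H3K9me2 summits lie downstream of the starts, by 131 to 978 bp, and ATAC summits upstream.

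H3K9me2, a mark usually associated with silent chromatin, was called at more of the targets. In both fasted livers, 5 of 9 had a summit at the start, *Ppara*, *Cyp4a10*, *Cyp4a14*, *Plin2* and *Fabp1*, where 29.1% of all annotated genes did. In fasted liver 1 these were the 5 of 9 (29.3% of all genes), and in fasted liver 2, with the longest list, 8 of 9 had a summit (42.7%), all but *Cidea*. In refed liver 2, 3 of 9 had one (35.1%), *Ppara*, *Plin2* and *Fabp1*, and in refed liver 1 none did (0.233%), so that none had one in both refed livers (0.0420%).

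The share of genes with such a summit rose with expression, which was measured in refed liver alone and not in the fasted state. Among 1367 genes with a mean WT level of 100 CPM or more, 85.8% had a summit in both fasted livers and 91.5% in refed liver 2. Of the targets, 6 reach that level, and 5 of these, all but *Vnn1*, are the 5 with a summit in both fasted livers, so their count stands beside the 85.8% and not only the 29.1%. *Pdk4* and *Cidec*, at 7.33 CPM or less in WT, had a summit in fasted liver 2 alone, at rank 11185 and 13232 of 13456.

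*Cyp4a10* and *Cyp4a14* were the targets that had an H3K9me2 summit in both fasted livers and in neither refed liver. *Cyp4a10* had one 566 bp downstream of the start in fasted liver 1 (rank 3545 of 7690) and 680 bp downstream in fasted liver 2 (rank 10563 of 13456). *Cyp4a14* had one at 679 bp (rank 3058) and 439 bp (rank 7141). All 4 lie in the first intron. The list of refed liver 2, with 9929 summits, is longer than that of fasted liver 1, but a difference that rests on 1 refed liver was not tested.

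*Ppara*, *Plin2* and *Fabp1* had an H3K9me2 summit at the start in both fasted livers and in refed liver 2. At *Ppara* the summits lay 574 bp downstream of the proximal start in fasted liver 1 (rank 191 of 7690), 664 bp in fasted liver 2 (rank 4271 of 13456) and 666 bp in refed liver 2 (rank 1827 of 9929), the last pair 2 bp apart. At *Plin2* they lay at 373, 394 and 364 bp, within 30 bp of each other, at rank 2667, 1817 and 442. At *Fabp1* they lay at 446, 298 and 978 bp, up to 680 bp apart, at rank 1564, 972 and 1372. These summits were all in the first intron.

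The summits of *Pdk4* at 131 bp and *Vnn1* at 391 bp in fasted liver 2 lay in the first exon, and that of *Cidec* at 213 bp in the first intron. *Cidec* also held a summit in intron 3 in 3 livers, 6197, 6189 and 6060 bp from a start, at rank 1370, 2475 and 1566. A further summit about 7.1 kb upstream of *Cidec* in the same livers lay 304, 291 and 327 bp downstream of the start of *Jagn1*, the next gene. *Cidea*, on chromosome 18 (67343564 to 67367794, plus strand), had no H3K9me2 summit within 47373 bp of its start and no ATAC summit within 31215 bp in any liver.

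**Figure D5:**
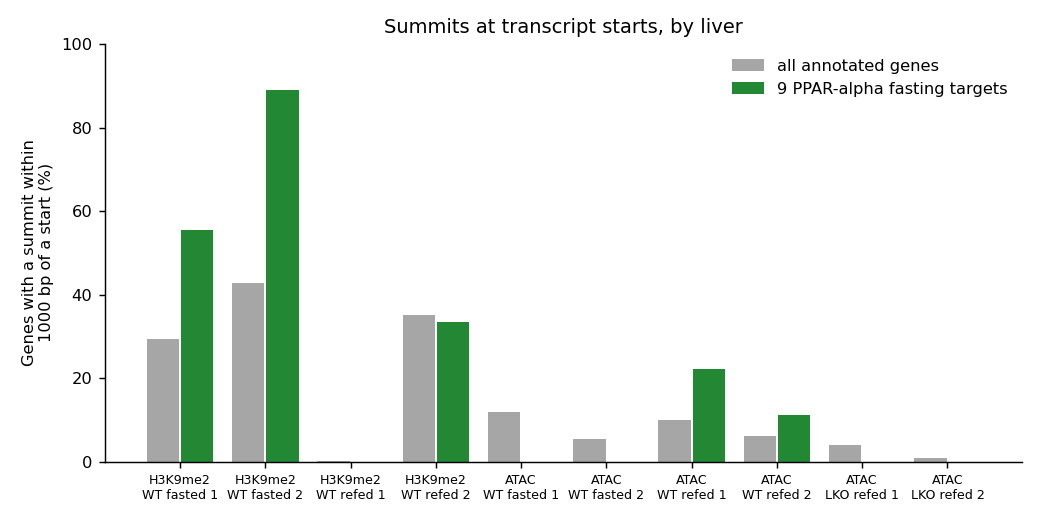
Share of genes with a summit within 1000 bp of a RefSeq start in each liver, for all 26180 annotated genes (grey) and the 9 targets (green), in percent from 0. The targets reach 8 of 9 in the second fasted H3K9me2 liver and 0 of 9 in the first refed H3K9me2 liver and in the fasted and JMJD1C-LKO ATAC livers.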

How the data were processed

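For RNA-seq, the authors deposited a table of estimated counts, with RefSeq transcripts as rows and 4 libraries as columns, not scaled to depth. For ChIP-seq and ATAC-seq, a deposited MACS2 list per liver gives each summit and its -log10 q-value. Per the labels, reads were mapped to mm10, and the tools named in the submitters' processing notes include HISAT2, Partek, MACS2 2.1.1 and DESeq2. By the study's methods, ChIP-seq reads were aligned with Bowtie2 and peaks called against input at a q-value of 0.05 and 2.5-fold enrichment, and ATAC-seq reads were aligned with BWA. The RNA counting step is not given in the sources used here. The lists hold no read counts, so depth behind each summit is unknown. A table of the authors' own fold changes and p-values was not used.

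Transcript counts were summed per gene, rounded and tested with edgeR 4.0.16 (filterByExpr, TMM scaling, quasi-likelihood F test, no block, Benjamini-Hochberg adjustment over 14151 genes), after a check on simulated counts. Every adjusted p in the text is from this test unless another is named. Starts came from RefSeq on GRCm38.p6, the build of the files. Alternatives were other size factors, DESeq2 1.42.0, no filter, a replicate block, each library left out, transcripts as rows, and for summits other windows, scores, list lengths and single livers.

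Named genes were the targets, their families, *Jmjd1c*, up to 4 called genes per pathway list by smallest p, and genes nearest to each target in pattern over the 4 libraries. Genes of marker and state lists are named beside the results they touch, and *Rxra*, *Rxrb*, *Ncor1* and *Jagn1* were chosen after their values were seen. Some genes that the rule names are not reported here. The members and lists were chosen with earlier results of these data known. Conditions marked F and R in sample titles were read from the study's reporting summary. Refeeding lasted 6 h by the labels, while the methods describe between 8 and 16 h of diet.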

Additional observations from a re-analysis of the deposited data

How the results depend on the processing

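Of 14151 genes, 3958 were called (2066 higher, 1892 lower), and 1265 and 1068 were called without WT replicate 1 and WT replicate 2, the range over all libraries left out being 1068 to 5180. The lone library of a group is then assumed to vary like the other group. Called targets went from 4 to a range of 2 to 5, with *Pdk4* and *Cidec* alone without either WT library, and called genes of the 9 pathway lists from 59 to a range of 19 to 62. *Pdk4* and *Cidec* passed in every alternative, *Pdk4* with adjusted p up to 0.0451 and *Cidec* up to 0.0375. With other size factors, DESeq2, no filter or a replicate block, counts of calls stayed within 1.5 times. The replicate number was not used as a pairing, since deviations of same-numbered libraries correlated at -0.0046. With it as a replicate block, 4207 genes, 5 targets and 60 pathway genes were called, *Cyp4a14* being the added target. Values near 0 that changed sign, none of them called, were *Cyp4a10* (-0.10 to 0.054), *Vnn1* (-0.21 to 0.10), *Cyp4a12a* (-0.17 to 0.28), *Pdk1* (-0.19 to 0.078), *Cideb* (-0.086 to 0.078) and *Fabp7* (-0.029 to 0.66), each over the 4 libraries left out in turn, and *Jmjd1c* (0.10 for its most abundant transcript). Over 41 other named genes with a library left out, 33 of 164 values lost the call, 2 gained it and 7 changed sign. Of 9 targets, those with an H3K9me2 summit in the fasted livers went from 5 to 2 with a 500 bp window, 0 among the strongest 1297 summits of each liver and 8 in either liver, with 5 to 8 in single livers. In refed livers 0 became 3 in either liver, with 0 to 3 in single livers. ATAC summits in refed livers went from 1 to 0 among the strongest 825 and 2 in either liver, with 1 to 2 in single livers. Fasted and JMJD1C-LKO ATAC counts were 0 in every alternative. Apart from shorter lists and fewer samples, the cause of these changes was not tested.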

Other observations

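Genes nearest to the targets in pattern were found by the distance between centred log2 CPM over the 4 libraries. For *Pdk4* the nearest of 7535 genes were *Cdkn1a*, a cell cycle inhibitor, at 0.322, *H2-Aa*, an antigen presenting molecule, at 0.352, and *Gadd45g*, a stress gene, at 0.387, and no gene lay within 0.25. *Cdkn1a* was at 2.66 and 2.68 CPM in WT and 12.5 and 24.1 CPM in JMJD1C-LKO. For *Cidec* the nearest of 7534 genes were *Pirb* and *Marco*, both of myeloid cells, each at 0.077, and 30 genes lay within 0.25. *Marco* was at 26.3 and 23.3 CPM in WT and 56.3 and 79.8 CPM in JMJD1C-LKO. For *Ppara*, *Cyp4a10*, *Cyp4a14*, *Vnn1*, *Plin2* and *Fabp1* the nearest genes were *Reps1*, *Polr3b*, *Car2*, *Pdk1*, *Arhgef7* and *Rabl6*, with 779 to 2902 genes within 0.25, so that over 4 libraries these patterns were shared widely.

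Other marker lists were measured in the same libraries. Of 14 clock genes tested, 2 were higher in JMJD1C-LKO (*Per1* and *Ciart*) and 4 lower (*Per2*, *Per3*, *Nr1d1* and *Dbp*). Of 14 sex-linked and sex-biased genes, 3 were higher (*Sult2a1*, *Elovl3* and *Mup20*) and 3 lower (*A1bg*, *Cyp2b9* and *Kdm5d*). Of 10 hepatocyte markers 2 were higher (*Tat* and *Cps1*) and none lower. Of 7 blood cell markers 1 was higher, and of 3 tested pancreas markers 1 was higher (*Cela1*), with sums of 5.96 to 9.20 CPM.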
